A study of Paramacrobiotus metropolitanus with 7 samples.

Results

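Among the transcripts of the gonochoristic tardigrade Paramacrobiotus metropolitanus, 8 of 26306 were far more abundant in males than in females and yet present in every female library. They were chosen on the measured values themselves: a value of at least 10 in each female library, a lowest male library at least 3 times the highest female library, and a highest male library below 3 times the lowest. The higher level in males is therefore what selected these transcripts and is described here without a test. Each of the 8 is the only transcript of its locus.

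Expression was measured by RNA-Seq of whole bodies in 3 female and 4 male libraries of the TYO strain. Animals were reared singly until the gonads allowed sexing, and many animals of one sex were pooled in each tube. No treatment or genotype distinguished the sexes, and the labels give no age. The unit is TPM, a read share corrected for transcript length and then scaled between libraries by the TMM method. The libraries summed to between 891117 and 1127677, and the depth cannot be read from these values, so precision is given as the SD between libraries. Because whole bodies were measured, a lower share of cells and less RNA per cell cannot be told apart. No sex marker independent of the comparison between the sexes was used here.

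In animals with separate sexes, much of the difference between male and female RNA comes from the gonads, since the testis and the ovary each express large sets of genes that other tissues use little. Spermatogenesis is known in many animals for genes expressed almost nowhere else. A transcript abundant in males and present in females can be a gene that both sexes use at different levels, and it can also be one that a single tissue expresses. The deposited tables do not pair the 8 identifiers with gene names, and 0 of the 8 were found in the RefSeq gene table, so no function is assigned to them and no sequence is shown.

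The female libraries did not share one level of male-abundant transcripts, which bears on every value below. For each female library in turn, a reference was formed of transcripts with at least 100 TPM in every male library, with males within the same spread limit, and with the other two female libraries below 20% of the lowest male. This reference leaves out the 8 transcripts and was chosen after the values were seen. In female library 1 the median level of 56 such transcripts was 0.394% of the male mean (quartiles 0.197 and 0.73). In female library 2 the median over 63 transcripts was 7.46% (quartiles 6.35 and 9.01), and in female library 3 it was 4.81% over 57 transcripts (quartiles 3.91 and 5.66). Transcripts abundant in males were thus present in female libraries 2 and 3 at shares above those of female library 1, with quartile ranges that did not overlap between the libraries. The source of these reads was not tested.

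In TPM, the 3 transcripts most abundant in males were among the most abundant of all transcripts there. PARRI_0018175.t1 had 6594, 3442, 5649 and 4370 TPM in male libraries 1 to 4, or 5014 ± 1389 (SD, n = 4), and ranked between 8 and 12 in each of them. In female libraries 1 to 3 it had 41.3, 358 and 237 TPM, or 212 ± 160 (SD, n = 3). The female libraries thus differed among themselves by 8.66-fold, and the lowest male library lay 9.62-fold above the highest female library.

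PARRI_0001384.t1 stood furthest apart between the sexes. It had 4681, 2973, 5058 and 3595 TPM in the males (4077 ± 963, SD, n = 4) and ranked between 13 and 19 in them. Females had 41.7, 90.7 and 23.9 TPM (52.1 ± 34.6, SD, n = 3). Its lowest male library was 32.8-fold above its highest female library, the largest such ratio of the 8.

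PARRI_0011251.t1 had 2992, 1725, 2952 and 1670 TPM in the males (2334 ± 736, SD, n = 4). In the females it had 14.6, 180.4 and 114 TPM (103 ± 83.5, SD, n = 3). Here female library 1 was 12.4-fold below female library 2, the widest female spread of the 8. Together the 3 transcripts took between 0.913% and 1.27% of the summed TPM of a male library, and all 8 took between 1.12% and 1.47%. In the females all 8 took 0.0288%, 0.0899% and 0.0532% of libraries 1 to 3.

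**Figure D1:**
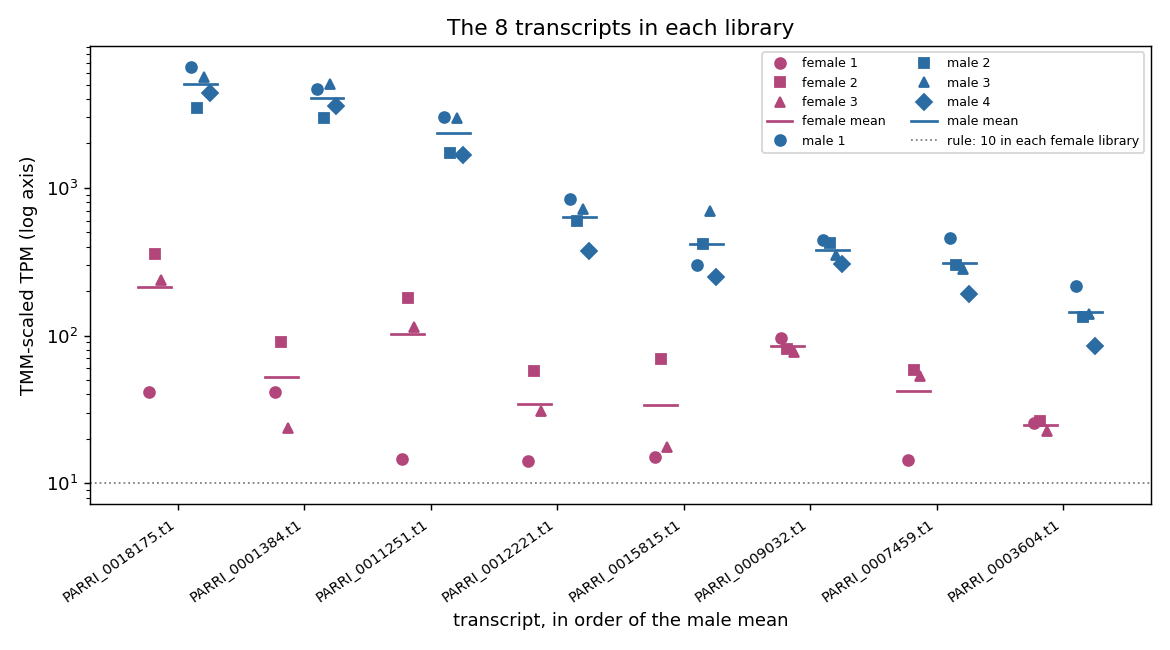
TMM-scaled TPM (log axis) of the 8 transcripts in 3 female and 4 male libraries, in order of the male mean. Points are libraries, bars the mean of a sex and the dotted line the value of 10 required in each female library; the sexes do not overlap in any transcript because the rule required it, and female points are close together in PARRI_0009032.t1 and PARRI_0003604.t1 only.

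The other 5 transcripts had male means between 144 and 633 TPM. PARRI_0012221.t1 had 839.5, 598, 719 and 376 TPM in males (633 ± 198, SD, n = 4) and 14.1, 57.6 and 31.0 TPM in females (34.2 ± 21.9, SD, n = 3). PARRI_0015815.t1 had 299.9, 419.6, 692 and 251 TPM in males (415 ± 197, SD, n = 4) and 15.0, 69.5 and 17.8 TPM in females (34.1 ± 30.7, SD, n = 3). It varied most among the males, by 2.76-fold, which was close to the limit of the rule, and its female library 2 stood well above the other two.

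PARRI_0007459.t1 had 459.7, 301.5, 281 and 191 TPM in males (308 ± 112, SD, n = 4). Its 3 female libraries had 14.4, 58.3 and 53.2 TPM (41.9 ± 24.0, SD, n = 3), so that library 1 was low and libraries 2 and 3 were near each other.

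The remaining pair had an even level in females. PARRI_0009032.t1 had 95.8, 81.2 and 77.5 TPM in females (84.8 ± 9.69, SD, n = 3), the highest lowest-female value of the 8, against 446.5, 423, 350.0 and 306 TPM in males (381.5 ± 64.8, SD, n = 4). PARRI_0003604.t1 had 25.6, 26.5 and 22.7 TPM in females (24.9 ± 1.96, SD, n = 3) and 218, 133, 139 and 85.5 TPM in males (144 ± 54.7, SD, n = 4). The highest female library exceeded the lowest by 1.24-fold in the first and by 1.16-fold in the second. Both lay just inside the ratio the rule asked for, with a lowest male library 3.20-fold and 3.23-fold above the highest female library.

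The rule set no limit on female spread. It lay between 3.80-fold and 12.4-fold in the other 6 transcripts. Among the 756 transcripts with at least 10 TPM in each female library and every male above every female, the 8 included, the median spread was 1.60-fold and 10.7% reached 3.5-fold. Most of the 8 were therefore more uneven among females than was common in that set, and PARRI_0009032.t1 and PARRI_0003604.t1 were more even than its median.

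Some libraries were often at the extremes. Female library 2 was the highest female library in 7 of the 8, against 50.9% of the 756, and PARRI_0009032.t1 was the exception. Female library 1 was the lowest in 5 of the 8, against 28.8% of the 756. Over all 8002 transcripts with at least 10 TPM in each female library it was the lowest in 71.1%. Its low place is therefore not particular to the 8. Female library 2 was the highest in 20.9% of the 8002. Male library 1 was the highest male library in 6 and male library 4 the lowest in 6, against 28.0% and 45.2% of the 756. In the 8002 these shares were 15.5% and 27.4%. Since the rule used the lowest value of the females, the highest value of the females and the lowest value of the males, these counts are descriptions.

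Read against the reference of each female library, the 8 transcripts fell into different positions. PARRI_0018175.t1 reached 0.824%, 7.14% and 4.72% of its male mean in female libraries 1 to 3, within the 10th to 90th percentiles of the reference in each library. PARRI_0011251.t1 reached 0.624%, 7.73% and 4.90% and lay within the quartiles in each. In female library 1 the limit of 10 TPM alone fixed at least 0.428% for it, above the reference median of 0.394%. For PARRI_0018175.t1 it fixed at least 0.1995%. Positions in that library are therefore partly set by the rule. In female libraries 2 and 3 the levels of these 2 transcripts lay in the range at which other male-abundant transcripts appeared.

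PARRI_0001384.t1 had 1.02%, 2.23% and 0.585% of its male mean. It lay above the 90th percentile in female library 1 and below the 10th percentile in female libraries 2 and 3, where 62 of 63 and 57 of 57 reference transcripts had a higher share. In female library 1 the limit of 10 TPM alone fixed at least 0.245% for it, and the reference leaves out the transcripts that passed this limit with the rest of the rule. Its position in that library is therefore also partly set by the rule. The order of its shares over the 3 female libraries differed from that of the reference medians. PARRI_0012221.t1 had 2.23%, 9.09% and 4.90%, within the 10th to 90th percentiles in female libraries 2 and 3. In female library 1 the limit of 10 TPM alone fixed a share of at least 1.58% for it and of 2.41% to 6.95% for the 4 transcripts with lower male means, above the 90th percentile of the reference there (0.985%), so these positions restate the rule.

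For those 4 the reference is of little use, and their shares are given as values. PARRI_0015815.t1 had 3.61%, 16.7% and 4.28% of its male mean. PARRI_0009032.t1 had 25.1%, 21.3% and 20.3%, PARRI_0007459.t1 had 4.66%, 18.9% and 17.3%, and PARRI_0003604.t1 had 17.8%, 18.4% and 15.8%. The last 3 could not have entered the reference of any female library, because their other female libraries did not all lie below 20% of the lowest male, and PARRI_0015815.t1 could have entered that of female library 2 only. A reference with the other two female libraries below 10%, also chosen after the values were seen, had medians of 0.375%, 7.15% and 4.3%.

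**Figure D2:**
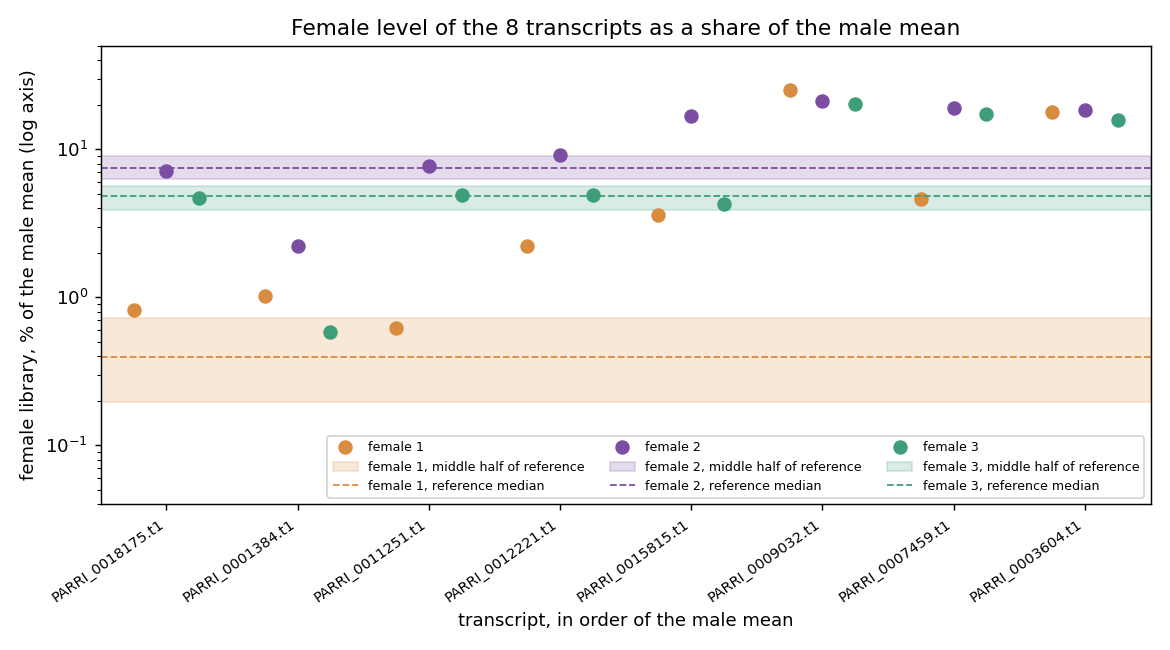
Level of the 8 transcripts in each female library as a percentage of their male mean (log axis), in order of the male mean. Dashed lines are the medians and bands the quartiles of other male-abundant transcripts in the same female library (0.394%, 7.46% and 4.81%). PARRI_0018175.t1 and PARRI_0011251.t1 sit on or near the bands. The limit of 10 TPM kept PARRI_0011251.t1 above the median of female library 1. It kept the 5 transcripts of lower male mean above the band of that library.

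A TPM value of 10 can rest on very different numbers of reads. The authors' mean normalized count for each sex, from their deposited comparison table, was used to estimate this. In PARRI_0001384.t1 it was 285.6 in females and 21731 in males, whereas in PARRI_0011251.t1 it was 12.2 and 323. PARRI_0018175.t1, the most abundant of the 8 in TPM, had an authors' mean of only 58.9 in females and 1539 in males. In the other 5 transcripts the authors' mean lay between 41.6 and 129.5 in females and between 291 and 1415 in males.

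Divided by the mean TPM of the males, these are 0.139 normalized counts per TPM for PARRI_0011251.t1, 0.307 for PARRI_0018175.t1 and 5.33 for PARRI_0001384.t1. By the construction of TPM this ratio follows the length of the coding sequence that the reads can cover. Over the 7666 transcripts whose mean reached 10 in each sex its median was 8.67, and all 8 lay at or below the 32.6th percentile of these. Their median was 1.84, against 7.91 in the 756 transcripts with every male above every female and 8.17 in the 126 transcripts that pass the same rule with the sexes exchanged. It was 5.99 in 227 transcripts that meet the male conditions with at least 30 TPM in each male library but have less than 10 in some female library. At its own conversion, the 14.6 TPM of PARRI_0011251.t1 in female library 1 correspond to an estimated 1.73 normalized counts, and the 41.3 TPM of PARRI_0018175.t1 to 11.5. By this estimate the value of PARRI_0011251.t1 in that library rests on very few reads, and 7 of the 8 transcripts keep an estimate of at least 10 in every female library.

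Such transcripts were few. Of 8002 transcripts with at least 10 TPM in each female library, 756 (9.45%) had every male library above every female library. A ratio of 1.5 between the lowest male and the highest female left 127, a ratio of 2 left 30, the ratio of 3 left the 8 (0.1%), and a ratio of 5 left 4. The limit on male spread removed 0 transcripts at the ratio of 3. With the sexes exchanged, 7963 transcripts had at least 10 TPM in each male library, of which 2209 (27.7%) had every female above every male and 146 (1.83%) did so by at least 3-fold, or 126 within the spread limit. With the deposited scaling, transcripts that were high in females and still present in males were therefore more numerous at each ratio examined. The 8002 transcripts had a median log2 difference, males minus females, of -0.76. The count of 8 became 13 after quantile normalization and 24 after median centring. The count with the sexes exchanged was not repeated under those scalings.

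**Figure D3:**
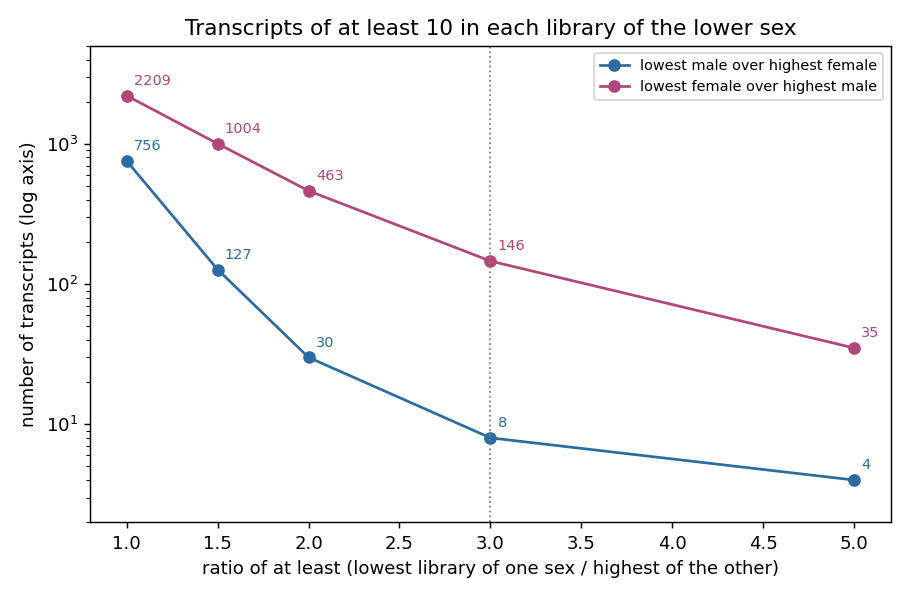
Number of transcripts (log axis) with at least 10 TPM in every library of the lower sex, against the ratio of the lowest library of the higher sex to the highest library of the other. The dotted line marks the ratio of 3, where 8 transcripts were higher in males and 146 higher in females before the spread limit.

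In the limma comparison of all transcripts, 4662 of 18420 (25.3%) were called higher in males and 4410 (23.9%) higher in females at an FDR of 0.05. All 8 were among those higher in males, which the rule made likely and which is not a result about them. Of the calls, 51.4% were higher in males, and 70.2% were after the libraries were centred on the median of transcripts detected in all of them. The log2 differences of the 8 lay between 2.16 and 6.47 with a median of 4.11. The median over all tested transcripts was 0.50, which became 0.01 after quantile normalization and 1.02 after median centring. Over the 8002 transcripts with at least 10 TPM in each female library the median was -0.76.

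Other transcripts lay close to the female limit and to the ratio, while 0 failed the male spread limit alone. Just inside the female limit of 10 were PARRI_0012221.t1 and PARRI_0007459.t1, with lowest female values of 14.1 and 14.4 TPM. Just outside were PARRI_0019685.t1, with 9.61 TPM in its lowest female library and 79.5 ± 8.65 TPM in males (SD, n = 4), and PARRI_0012039.t1, with 8.68 TPM and 1190.3 ± 321 TPM (SD, n = 4). The lowest value of PARRI_0012039.t1 was in female library 1, against 91.3 and 55.0 TPM in libraries 2 and 3. In all, 14 transcripts with at least 5 TPM in each female library failed only the limit of 10.

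Just outside the ratio of 3 were PARRI_0011545.t1, at 2.93, and PARRI_0013669.t1, at 2.80. PARRI_0011545.t1 had 80.9, 369.9 and 346 TPM in females and 2208, 2003, 2343 and 1083 TPM in males. With the other limits met, 21 transcripts had a ratio from 2 to below 3. The number chosen depended on single libraries: it was 52 without female library 1, 39 without female library 2, 14 without female library 3 and 18 without male library 4. Leaving out a library relaxes the limits and can only add transcripts.

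Position was the other property that the rule did not use. The identifiers are numbered by locus, and the 8 loci were not consecutive. At the locus numbers directly before and after, 16 transcripts were tested, of which 9 (56.2%) were called higher in males, 2 higher in females and 5 in neither direction. Over 5 locus numbers on each side, 34 of 78 tested transcripts (43.6%) were higher in males, 23 (29.5%) higher in females and 21 in neither direction, against the 25.3% and 23.9% of all transcripts. Neighbours are not independent of each other, and these shares are descriptions without a test. Whether the numbering follows the genome without breaks was not tested.

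The neighbourhoods differed in kind. Around PARRI_0011251.t1, 9 of 10 tested neighbours were higher in males and 0 higher in females. Around PARRI_0009032.t1 the counts were 7 and 0 of 9. The neighbours of PARRI_0011251.t1 were weak in females: PARRI_0011250.t1, directly before it, had 0.187 ± 0.124 TPM in females (SD, n = 3) and 7.03 ± 1.67 TPM in males (SD, n = 4), a log2 difference of 4.71 (SE 0.53, FDR 0.00057). This difference was 2.74 with a pseudocount of 1 and 3.09 after quantile normalization, and the call held in both. In contrast, 6 of 10 neighbours of PARRI_0003604.t1, 5 of 8 of PARRI_0001384.t1 and 4 of 10 of PARRI_0015815.t1 were higher in females.

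Some direct neighbours reached the level of the chosen transcripts. PARRI_0018176.t1, after PARRI_0018175.t1, had 6457, 4487, 6825 and 2641 TPM in males and 8.07, 418 and 229.8 TPM in females, with a log2 difference of 5.70 (SE 1.21, FDR 0.0061). It missed the rule through female library 1. The authors' mean normalized count of PARRI_0018176.t1 was only 22.5 in females and 609 in males. Its value in female library 1 therefore rests on very few reads. Its shares of the male mean were 0.158%, 8.19% and 4.50%, in the same order over the female libraries as those of PARRI_0018175.t1. Whether these transcripts share reads was not tested.

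PARRI_0001385.t1, after PARRI_0001384.t1, had 1465, 534, 2045 and 536 TPM in males and 2.25, 0.297 and 7.93 TPM in females. Its log2 difference was 8.94 (SE 0.96, FDR 0.0005). Neither it nor PARRI_0001384.t1 had the order of the reference in female libraries 1 to 3, and their own orders differed. PARRI_0001384.t1 was highest in female library 2, where PARRI_0001385.t1 was lowest. The authors' mean normalized count of PARRI_0001385.t1 was only 13.5 in females, against 3815 in males, so its female values rest on few reads. The next locus, PARRI_0001386.t1, was called in the other direction, with 97.9 ± 28.8 TPM in females (SD, n = 3), 3.08 ± 0.912 TPM in males (SD, n = 4) and an FDR of 0.00025.

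PARRI_0007459.t1 lay between a neighbour higher in males, PARRI_0007458.t1, and one higher in females, PARRI_0007460.t1. PARRI_0007458.t1 had 10.02, 56.4 and 4.81 TPM in females and 130.5, 130.3, 135 and 82.1 TPM in males (FDR 0.0099). Its authors' mean normalized count was only 8.42 in females and 49.0 in males. PARRI_0007460.t1 had 34.1 ± 13.6 TPM in females (SD, n = 3) and 10.7 ± 1.58 TPM in males (SD, n = 4; FDR 0.0061).

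PARRI_0009033.t1, after PARRI_0009032.t1, shared with it a measurable level in both sexes, with 27.1 ± 11.04 TPM in females (SD, n = 3) and 76.2 ± 15.6 TPM in males (SD, n = 4; log2 difference 1.56, SE 0.34, FDR 0.0073). Around PARRI_0003604.t1, PARRI_0003605.t1 was higher in males, by 1.93 on the log2 scale (FDR 0.016). PARRI_0003603.t1 was higher in females, with a log2 difference of -1.11 (FDR 0.018), a call that was lost without female library 2 or 3 or male library 1 (FDR 0.061, 0.057 and 0.051) and with median centring (FDR 0.077). The neighbours of PARRI_0012221.t1, PARRI_0012220.t1 and PARRI_0012222.t1, were both higher in males (FDR 0.0067 and 0.013), although the call of PARRI_0012222.t1 was lost after quantile normalization (FDR 0.094). Those of PARRI_0015815.t1 were called in neither direction.

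**Figure D4:**
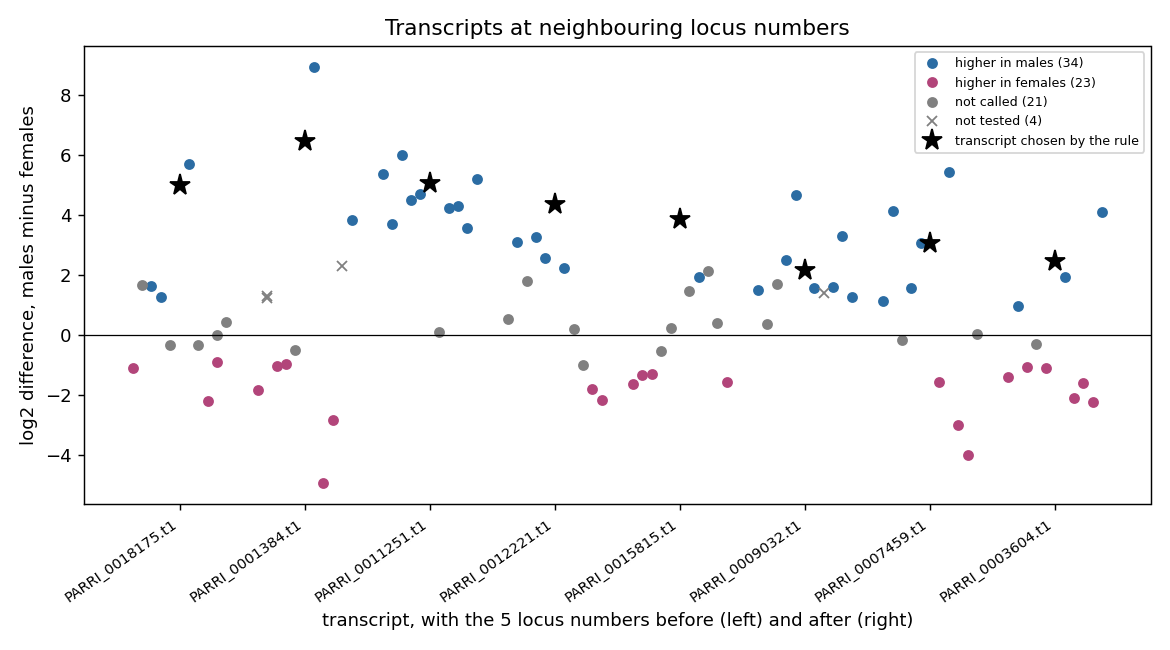
Log2 difference (males minus females, on log2(TPM + 0.1)) of the 8 transcripts (stars) and of the transcripts within 5 locus numbers before (left) and after (right) each, coloured by the limma call at an FDR of 0.05. Blue points (34) were higher in males and red points (23) higher in females; around PARRI_0011251.t1 and PARRI_0009032.t1 no neighbour was called higher in females.

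The genes that the study named for tolerance to drying or for sex determination contributed 0 of the 8. These are so small a part of the matrix that nothing is read from this count. The CAHS, SAHS and AMNP families hold proteins known from tardigrades that survive desiccation, and Dsup is a tardigrade protein that binds chromatin. Of these, 9 of 13 CAHS, 8 of 10 SAHS and 28 of 36 AMNP transcripts, as well as the Dsup transcript, had at least 10 TPM in each female library. Their largest ratio of the lowest male to the highest female was 0.753 for CAHS, 0.551 for SAHS, 1.65 for AMNP and 0.203 for Dsup. Neither the 5 transcripts of DMRT, a transcription factor family of gonad development in many animals, nor the 3 transcripts of the candidates for sxl, a splicing regulator of sex determination in Drosophila, had 10 TPM in each female library. The transcript of tra2, a splicing factor, did, with a ratio of 0.328.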

How the data were processed

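The authors mapped poly A-selected, paired-end reads to predicted coding sequences, estimated expression with RSEM 1.3.3 and deposited TPM values scaled by TMM, used here as the signal per transcript and library. The authors also deposited a DESeq2 1.38.0 comparison of the sexes. Its mean normalized count per sex was used, as the authors' mean, and its fold changes, standard errors, Wald statistics and p-values were not. Estimated counts per library are TPM times the authors' mean count over the mean TPM of that sex. Members were found from the TPM values with Python 3.11.15, pandas 2.3.3 and NumPy 2.4.6, and figures were drawn with matplotlib 3.10.9.

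The sexes were compared on log2(TPM + 0.1) by limma 3.58.1 (R 4.3.3) over every transcript that reached 1 TPM in 3 or more libraries of 7. The model held sex alone, the prior variance followed a trend with abundance, tests were two-sided and FDR was computed after Benjamini and Hochberg. The added 0.1 makes changes of weak transcripts look smaller than they are. The fit was tested on simulated data. Sex and library number came from the labels. Nothing there says that libraries of one sex came from separate cultures, so p-values measure the spread between these tubes, which may be technical. The rule, reference sets and transcripts named (all 8, those nearest each threshold and neighbours in the numbering) were chosen with earlier results of these data known. Alternatives were another pseudocount, other filters, scalings and thresholds, a replicate block and leaving out each library. The replicate block gives male library 4 no weight, so it is not separate from leaving that library out. Genomic sequencing was not used here, and 0 of the 24899 loci were found in the RefSeq gene table.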

Additional observations from a re-analysis of the deposited data

Results flagged for a closer look

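Of 28 transcripts examined (the 8, those nearest the thresholds and the direct neighbours), 1 had a male library far from the other 3. PARRI_0007458.t1, the locus before PARRI_0007459.t1, had 82.1 TPM in male library 4 and between 130.3 and 135 TPM in the others. Its authors' mean normalized count was only 49.0 in males and 8.42 in females, so these values rest on few reads. The gap was 0.92 of its male range, above Dixon's 95% critical value for 4 libraries. Chance gives such a value in about 1 in 20 groups. Its higher level in males was called in each of the 13 other settings, with log2 differences from 2.29 to 4.06.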

How the results depend on the processing

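The number of transcripts chosen followed the thresholds and the scaling. It was 22 with at least 5 TPM in each female library and 4 with at least 20, 29 at a ratio of 2 and 4 at a ratio of 5, and 4 with a male spread below 2-fold. It was 13 after quantile normalization, which kept 7 of the 8 and lost PARRI_0009032.t1, and 24 after median centring, which kept all 8. It stayed 8 with no limit on male spread and with the transcripts of a locus summed, and was 7 with an estimate of at least 10 normalized counts in each female library, an alternative chosen after seeing the data. Leaving out one library gave between 8 and 52. Over 5 locus numbers on each side, 34 of 78 tested neighbours (43.6%) were higher in males, against 9 of 16 (56.2%) directly beside the loci. Directly beside the loci, leaving out a library gave 9 each time, of 15 or 16 tested. The other settings gave between 7, of 12 tested with a mean of at least 5 TPM, and 10 of 16 with median centring. The call of PARRI_0003603.t1 was also lost with median centring (log2 difference -0.584, FDR 0.077), and that of PARRI_0012222.t1 with quantile normalization (FDR 0.094). The cause was not tested.

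Whether replicate numbers pair the libraries could not be decided. Deviations of same-numbered female and male libraries correlated at -0.013, 0.028 and 0.253. The deviations were taken from the mean of each sex, so these correlations are not independent of each other. Libraries with different numbers reached 0.259 (female 1 with male 4) and -0.255 (female 1 with male 3). No label states a pairing, and the numbers were taken as labels only. No female library has the number of male library 4, so the replicate block gave that library no weight in the comparison of the sexes. With the block 7586 transcripts were called, against 8022 without male library 4 and 9072 with all libraries and no block. The count of direct neighbours higher in males was 9 in each. Leaving out one library gave between 6260 and 10490 calls. The loci of the 8 hold no other transcript, so calls of other transcripts of the same locus gave no value. TPM carries no depth, which limits what can be said of weak female levels.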
